A study of Musculus with 2 samples.

Results

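The interstitial matrix genes are 38 genes for the proteins that fill the space between stromal cells, taken from a fixed list out of 32245 gene symbols measured in the series. All 38 were found by symbol. They comprise 6 fibrillar collagen chains, 6 other collagen chains, 6 genes of collagen maturation, 9 adhesive and matricellular proteins, 7 elastic fibre proteins and 4 small leucine-rich proteoglycans. Their RNA was counted as UMIs, unique molecular identifiers that mark single RNA molecules, in the stromal vascular fraction of mouse subcutaneous white adipose tissue (sWAT). This fraction holds the precursor, immune and vessel cells of fat, without mature adipocytes.

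The study has 1 Control library from mice of genotype WT and 1 LPCAT3-AKO library from mice of genotype LPCAT3 knockout. LPCAT3 is an enzyme that puts polyunsaturated fatty acids into membrane phosphatidylcholine. Both libraries came from tissue digested with 0.3% type I collagenase for 40 min at 37 °C and filtered at 100 µm, and the red cells were lysed. The labels give an age of 5 weeks and the series text 2 months, with control diet (CD) feeding in the series text. The sources used here name neither the driver of the deletion, nor the number of mice pooled, nor the 10x kit. The title of the series points to lipid remodelling in adipose tissue and insulin sensitivity. The comparison below asks where the matrix genes were expressed and how their levels differed between the libraries.

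Fibroblasts build the interstitial matrix of fat. Collagen chains are hydroxylated and folded in the endoplasmic reticulum, assembled into fibrils outside the cell and cross-linked by lysyl oxidases, while proteoglycans such as decorin coat the fibrils and elastin is laid on fibrillin microfibrils. Fat fibroblasts comprise precursors marked by Dpp4 and Pi16, preadipocytes marked by Col15a1 and Icam1, and further populations, each of which can contribute to this scaffold.

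The Control library held 13831 barcodes and 111669076 UMIs, and the LPCAT3-AKO library 12806 barcodes and 119355147 UMIs, with 36 barcode sequences in both. After filtering, 11191 and 10576 cells remained. With 1 library per genotype, no test between genotypes was possible and the spread between animals is unknown. All intervals below are 95% intervals that cover counting error alone. Lpcat3, the targeted gene, was at 27.2 CPM (UMIs of a gene scaled to 1e+06 UMIs of the same cells) in Control and 31.25 CPM in LPCAT3-AKO fibroblasts. Its level in this fraction therefore does not separate the labels.

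Fibroblasts were the cells with 10 or more UMIs of Dcn, the decorin gene. They numbered 5440 in the Control library (48.6% of cells) and 5692 in the LPCAT3-AKO library (53.8%), with median depths of 9558 and 9325 UMIs. The markers Pdgfra, Dpt, Gsn, Ly6a, Pdgfrb and Clec3b, which the rule did not use, summed to 16846 and 17049 CPM. Within the fibroblasts, 4 states were set by UMI counts of marker genes. Dpp4/Pi16 cells had 10 or more UMIs of these genes together and fewer than 3 of Col15a1, and Col15a1 cells had 3 or more of Col15a1 and fewer than 10 of the former. Cells with 6 or more UMIs of Fmo2 and Gdf10 formed the Fmo2/Gdf10 state. Cells with 10 or more UMIs of Ccn5 and Mfap4 formed the Ccn5/Mfap4 state, which took precedence.

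The states are ranges of marker counts and not cell types. The Dpp4/Pi16 state held 69.2% of Control fibroblasts and 57.5% of those in LPCAT3-AKO (3763 and 3275 cells). The Col15a1 state held 12.7% and 21.6% (691 and 1229 cells). Fmo2/Gdf10 cells numbered 105 and 171, and Ccn5/Mfap4 cells 202 and 274. A further 596 and 560 cells met no state's rule. Another 83 and 183 cells carried 3 or more markers of another cell type at 0.1% or more of their UMIs. They were placed in no state but stayed among all fibroblasts. Few cells sat at the limits: 18 and 19 cells had exactly 10 UMIs of Ccn5 and Mfap4, and 17 and 21 had 1 fewer. Around the Col15a1 limit there were more, with 156 and 190 cells at exactly 3 UMIs and 191 and 222 at 1 fewer. Around the Fmo2 and Gdf10 limit there were 28 and 39 cells at 6 UMIs and 44 and 59 at 1 fewer.

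Cd55 and Fabp4, which the rule did not use, differed between the Dpp4/Pi16 and Col15a1 states. Other genes listed as checks were Anxa3, Wnt2 and Bmp7 for the former and Icam1, Pparg, Cd36 and Lpl for the latter. Their levels are not given, so Cd55 and Fabp4 do not stand for the lists. Cd55, a further marker of the Dpp4/Pi16 population, was at 530.3 CPM in Control and 556 CPM in LPCAT3-AKO Dpp4/Pi16 cells, against 79.1 and 79.7 CPM in Col15a1 cells. The fatty acid carrier gene Fabp4 was at 3605 and 3169 CPM in Col15a1 cells and at 26.9 and 44.0 CPM in Dpp4/Pi16 cells. Fmo2/Gdf10 cells lay near them, with 985 and 519 CPM of Fabp4 and a median of 2 and 3 Col15a1 UMIs. Clec11a was at 72.3 and 92.2 CPM in Fmo2/Gdf10 cells and at 20.2 and 21.6 CPM in Ccn5/Mfap4 cells. Its level in Col15a1 cells is not given, nor are those of F3 and Cygb, also listed as checks of Fmo2/Gdf10 cells. Cxcl13, the only gene listed as a check of Ccn5/Mfap4 cells, did not mark them. It was at 139.8 and 146 CPM there and at 63.0 and 429 CPM in Fmo2/Gdf10 cells. Cells of the Ccn5/Mfap4 state were deeper, with medians of 12873 and 13184 UMIs against 8785 and 8831 UMIs in Col15a1 cells, and they also carried a median of 20 and 24 UMIs of Dpp4 and Pi16.

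The 38 genes together took 6.15% of all fibroblast UMIs in Control and 6.75% in LPCAT3-AKO, 1.10 times the Control share. Their share was highest in Col15a1 cells, at 8.03% and 9.42%, and lowest in Dpp4/Pi16 cells, at 5.72% and 6.07%. Ccn5/Mfap4 cells (7.20% and 7.83%) and Fmo2/Gdf10 cells (6.99% and 8.03%) lay between. Mural cells, the contractile cells of vessel walls, gave 1.82% and 1.71%. These shares include Dcn and Mfap4, which were used to choose cells, so they are not independent of that choice. Dcn was at 8071.5 and 8338.6 CPM in all fibroblasts. In mural cells, chosen for few Dcn UMIs, it was at 83.7 and 140 CPM.

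The matrix genes were spread unevenly over the states, and most had their highest state in common between the libraries. Dcn and Mfap4 chose the cells and are set aside here. Of the other 36 genes, 34 had the same highest state in both libraries, against 65.0% of all genes at 20 CPM or more in a state. The shares over all genes were not matched for level, and many matrix genes stood far above 20 CPM. In both libraries 14 were highest in Col15a1 cells, 12 in Ccn5/Mfap4 cells, 8 in Dpp4/Pi16 cells and 0 in Fmo2/Gdf10 cells. Over all genes these shares were 26.8%, 13.4%, 16.3% and 8.58%. The prolyl hydroxylase genes P4ha1 and P4ha2 had another highest state in each library. Counting intervals of the highest and the next state overlapped for P4ha1 in both libraries. For P4ha2 they overlapped in Control, with 101.6 CPM in Ccn5/Mfap4 and 100.9 CPM in Col15a1 cells. Levels differed 3-fold or more between the highest and the lowest state in both libraries for 16 of the 36, against 10.2% of 6573 genes. Among the 16, Tnc and Col8a1 reached 20 CPM only in their highest state. For them a wide range was nearly fixed by the floor.

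**Figure D1:**
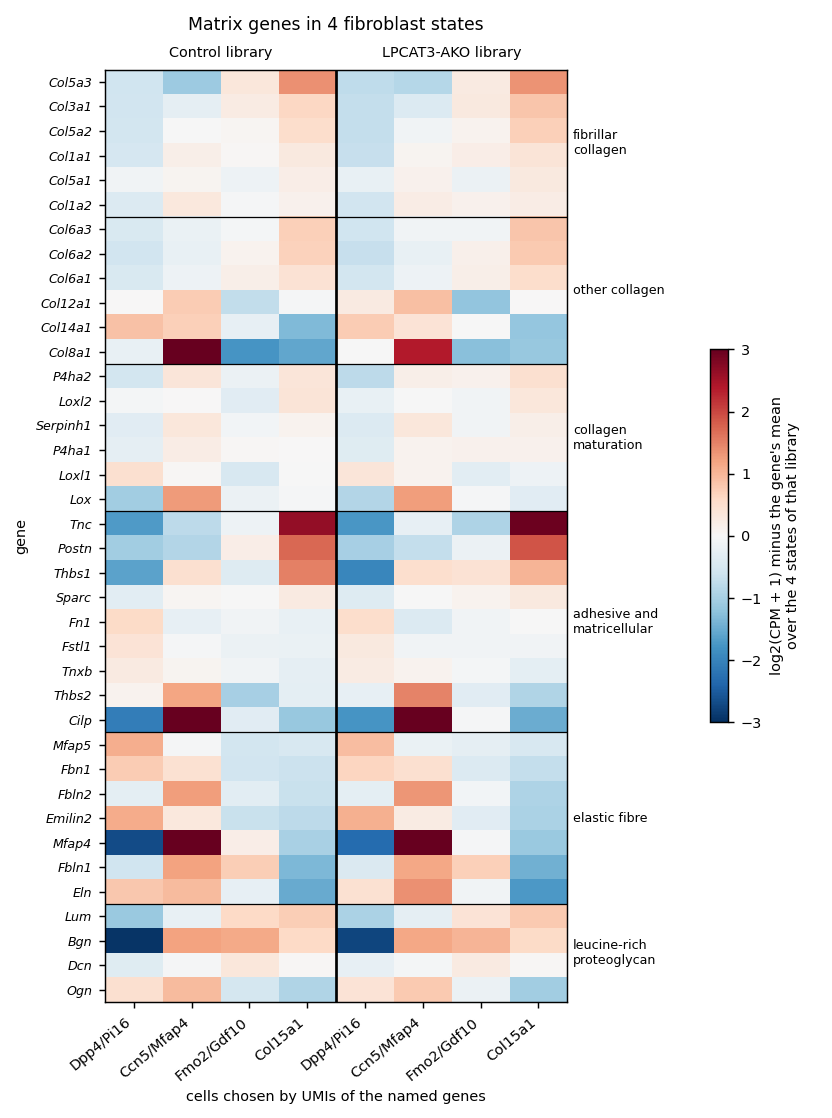
Level of each matrix gene in the 4 fibroblast states (columns) of the Control library (left) and the LPCAT3-AKO library (right), as log2(CPM + 1) minus the gene's mean over the 4 states of that library, with colours limited to 3 log2 units either way and genes grouped by role. The left and right patterns match for most genes: 34 of the 36 genes not used to choose cells share their highest state.

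Among the fibrillar collagens, types I and III are the bulk fibrils of soft tissue and type V sets fibril diameter. Col3a1, the type III chain, was at 18818 CPM in Control and 24000 CPM in LPCAT3-AKO Col15a1 cells, and at 8194 and 8259 CPM in Dpp4/Pi16 cells. Ccn5/Mfap4 cells had 10161 and 10087 CPM of Col3a1 and Fmo2/Gdf10 cells 14462 and 16353 CPM. The order of the 4 states was thus the same in both libraries. Col1a1 ran from 3917 and 3551 CPM in Dpp4/Pi16 cells to 6832 and 7534 CPM in Col15a1 cells. Col1a2 was highest in Ccn5/Mfap4 cells instead, at 10304 and 10431 CPM, with Col15a1 cells at 9065 and 10400 CPM, so these 2 states hardly differed in the LPCAT3-AKO library. UMIs of Col3a1 per UMI of Col1a1 were 2.75 and 3.19 in Col15a1 cells and 1.62 and 1.65 in Ccn5/Mfap4 cells.

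The 3 type V chains split. Col5a1 differed little between states, with 1.28-fold and 1.43-fold ranges, while Col5a3, the least widely expressed chain, was at 962 and 1276 CPM in Col15a1 cells, 473 and 598 CPM in Fmo2/Gdf10 cells, 245 and 296 CPM in Dpp4/Pi16 cells and 175 and 276 CPM in Ccn5/Mfap4 cells. Each UMI of Col5a1 came with 0.9998 UMIs of Col5a3 in Control and 1.15 in LPCAT3-AKO Col15a1 cells. In Dpp4/Pi16 cells the ratio was 0.314 and 0.380, and in Ccn5/Mfap4 cells 0.198 and 0.278, so the make-up of the type V transcripts differed between states in both libraries. Col5a2 followed Col3a1, with 1461 and 1836 CPM in Col15a1 cells against 692 and 675 CPM in Dpp4/Pi16 cells.

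Type VI collagen forms beaded filaments around cells. Its 3 chains were highest in Col15a1 cells, Col6a3 at 2117 and 2271 CPM against 951 and 839 CPM in Dpp4/Pi16 cells. Col6a1 and Col6a2 were 1.84-fold and 2.38-fold higher in Col15a1 than in Dpp4/Pi16 cells of the Control library, and 2.10-fold and 2.77-fold in the LPCAT3-AKO library. Collagens XII and XIV sit on fibril surfaces and had another distribution. Col14a1 was at 1097 and 991 CPM in Dpp4/Pi16 cells, 982 and 768 CPM in Ccn5/Mfap4 cells, 504 and 579 CPM in Fmo2/Gdf10 cells and 239 and 258 CPM in Col15a1 cells. It therefore ran opposite to Col3a1 between the Dpp4/Pi16 and Col15a1 states. Col12a1 was at 74.2 and 95.6 CPM in Ccn5/Mfap4 cells and at 25.7 and 21.6 CPM in Fmo2/Gdf10 cells.

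Col8a1, a short-chain collagen of vessel walls, was rare in fibroblasts and concentrated in a few cells. Ccn5/Mfap4 cells held 103 UMIs in Control (38.6 CPM) and 102 in LPCAT3-AKO (27.6 CPM). Dpp4/Pi16 cells had 71 and 144 UMIs (1.91 and 4.48 CPM), and Col15a1 cells 1 and 18 UMIs. No Control Fmo2/Gdf10 cell had a UMI, where the limit of 3 UMIs stands at 3.498 CPM, and LPCAT3-AKO Fmo2/Gdf10 cells had 2. UMIs of Col8a1 were found in 7.92% and 10.6% of Ccn5/Mfap4 cells.

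Of the collagen maturation genes, the lysyl oxidases divided by state. Lox, which cross-links collagen and elastin, was at 527 and 693 CPM in Ccn5/Mfap4 cells and at 105 and 156 CPM in Dpp4/Pi16 cells, with 211 and 228 CPM in Col15a1 cells. Loxl1, tied to elastic fibres, was at 794 and 861 CPM in Dpp4/Pi16 cells and 587 and 718 CPM in Ccn5/Mfap4 cells. UMIs of Lox per UMI of Loxl1 were 0.897 and 0.965 in Ccn5/Mfap4 cells against 0.132 and 0.181 in Dpp4/Pi16 cells. Serpinh1, the collagen chaperone, kept within 1.59-fold and 1.67-fold between states, with 2207 and 2517 CPM in Ccn5/Mfap4 cells. Loxl2 stayed within 1.64-fold and 1.48-fold, and P4ha1 within 1.42-fold in both libraries.

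Several adhesive and matricellular genes differed widely between states. Postn, which encodes periostin, a collagen-binding matricellular protein, was at 4407 and 4942 CPM in Col15a1 cells. It was at 1532 and 1172 CPM in Fmo2/Gdf10 cells, 727 and 803 CPM in Ccn5/Mfap4 cells and 645 and 670.1 CPM in Dpp4/Pi16 cells. Col15a1 cells supplied 43.4% of the fibroblast Postn UMIs from 12.7% of the cells in the Control library, and 61.1% from 21.6% of the cells in the LPCAT3-AKO library. Tnc, the gene for tenascin C, showed 140 UMIs in Control (21.7 CPM) and 387 in LPCAT3-AKO Col15a1 cells (32.6 CPM), against 5 and 10 UMIs in the far larger Dpp4/Pi16 state. Those UMIs came from 4.34% and 5.13% of Col15a1 cells, and the single richest Control cell held 16.4% of them.

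The thrombospondins, which bind matrix and activate latent TGF-beta in the case of thrombospondin 1, had opposite tops. Thbs1 was at 258 and 154 CPM in Col15a1 cells, 127 and 108 CPM in Ccn5/Mfap4 cells, 68.8 and 103 CPM in Fmo2/Gdf10 cells and 28.8 and 18.8 CPM in Dpp4/Pi16 cells. Thbs2 was at 930.4 and 1254 CPM in Ccn5/Mfap4 cells and at 333 and 238 CPM in Col15a1 cells. The cartilage intermediate layer protein gene Cilp was at 476 and 967 CPM in Ccn5/Mfap4 cells, 31.5 and 94.8 CPM in Fmo2/Gdf10 cells, 17.5 and 34.1 CPM in Col15a1 cells and 8.79 and 28.0 CPM in Dpp4/Pi16 cells. Ccn5/Mfap4 cells were 3.71% and 4.81% of fibroblasts and gave 66.5% and 63.4% of their Cilp UMIs. Fibronectin (Fn1), the osteonectin gene Sparc, Fstl1 and Tnxb were broad, each with less than a 2-fold range between states in both libraries. Sparc was at 8041 and 9854 CPM in Col15a1 cells and 5347 and 6134 CPM in Dpp4/Pi16 cells.

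Apart from Mfap4, the elastic fibre genes were lower in Col15a1 than in Dpp4/Pi16 cells. Eln, the elastin gene, was at 185 and 242 CPM there, against 938 and 1110.4 CPM in Dpp4/Pi16 cells and 1033 and 2069 CPM in Ccn5/Mfap4 cells. Fbn1, the fibrillin-1 gene, was at 1968 and 2314 CPM in Dpp4/Pi16 cells and at 741 and 904 CPM in Col15a1 cells. Mfap5, a microfibril-associated glycoprotein, was at 2704 and 2937 CPM in Dpp4/Pi16 cells, 1237 and 1348 CPM in Ccn5/Mfap4 cells, 907 and 1101 CPM in Col15a1 cells and 868 and 1279 CPM in Fmo2/Gdf10 cells. Emilin2 ran from 482 and 525 CPM in Dpp4/Pi16 cells to 129.6 and 129.9 CPM in Col15a1 cells.

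The fibulins, which bridge elastic fibres and basement membranes, were highest in Ccn5/Mfap4 cells. Fbln2 was at 1470.1 and 2130 CPM there, and at 387 and 452 CPM in Col15a1 cells. Fbln1 was at 593 and 762 CPM in Ccn5/Mfap4 cells, 428 and 562 CPM in Fmo2/Gdf10 cells, 169 and 250.2 CPM in Dpp4/Pi16 cells and 99.99 and 124 CPM in Col15a1 cells. Mfap4, which set this state, was at 411 and 572 CPM in it by choice.

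The proteoglycans, which space and coat collagen fibrils, split into opposite patterns. Lum, the lumican gene, was at 2376 and 2414 CPM in Col15a1 cells, 2145 and 1874 CPM in Fmo2/Gdf10 cells, 1216 and 1167 CPM in Ccn5/Mfap4 cells and 658 and 727 CPM in Dpp4/Pi16 cells. Ogn, the osteoglycin gene, was at 3009 and 3484 CPM in Ccn5/Mfap4 cells, 2177 and 2687 CPM in Dpp4/Pi16 cells and 837 and 978 CPM in Col15a1 cells. UMIs of Lum per UMI of Ogn were 2.84 and 2.47 in Col15a1 cells and 0.302 and 0.271 in Dpp4/Pi16 cells. Bgn, which encodes biglycan, was at 63.0 and 91.5 CPM in Dpp4/Pi16 cells, against 749.3 and 937 CPM in Col15a1, 1074 and 1278 CPM in Fmo2/Gdf10 and 1136 and 1407 CPM in Ccn5/Mfap4 cells. Biglycan transcripts thus set the Dpp4/Pi16 state apart from the other 3 in both libraries, 18.0-fold and 15.4-fold below Ccn5/Mfap4 cells.

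Each pair of states was also compared by size: a gene passed with at least 20 CPM in the higher group, at least a 1.5-fold difference and a counting interval of the ratio without 1, in both libraries. From Dpp4/Pi16 to Col15a1 cells, 14 of 34 matrix genes above the floor were higher and 7 lower, against 13.1% and 11.8% of all genes. From Dpp4/Pi16 to Ccn5/Mfap4 cells, 14 of 35 were higher and 3 lower, against 6.21% and 7.41%. From Dpp4/Pi16 to Fmo2/Gdf10 cells, 12 of 34 were higher and 8 lower, against 6.97% and 7.97%. Fmo2/Gdf10 and Col15a1 cells were nearer to each other: 4 of 35 were higher in the former (Col14a1, Cilp, Eln, Fbln1) and 5 lower (Col5a3, Col6a3, Col12a1, Postn, Tnc), against 4.48% and 3.88%. From Col15a1 to Ccn5/Mfap4 cells, 13 of 36 were higher and 7 lower, against 9.11% and 11.4%. Where Tnc or Col8a1 is counted, it reached the floor only in the higher state of the pair. In the Control library this also held for Cilp.

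**Figure D2:**
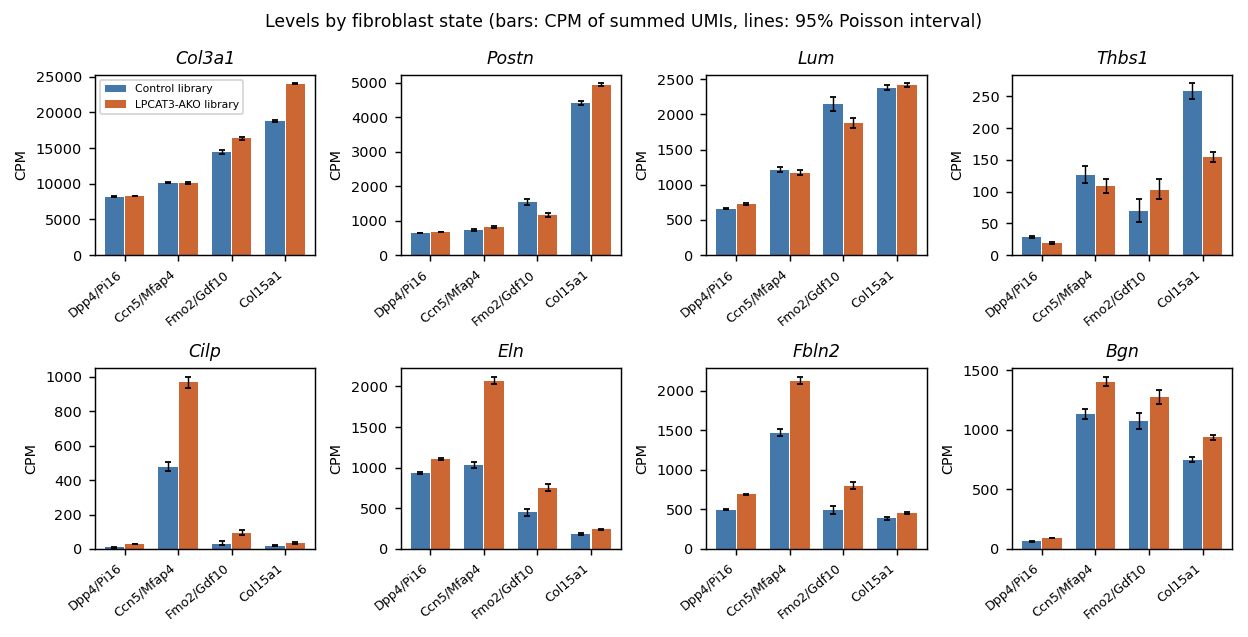
CPM of 8 matrix genes in the 4 fibroblast states of the Control library (blue) and the LPCAT3-AKO library (orange), with 95% Poisson intervals as lines. Postn and Thbs1 stand highest in Col15a1 cells of both libraries, and Cilp, Eln and Fbln2 in Ccn5/Mfap4 cells, where Cilp and Eln are also about 2.0-fold higher in the LPCAT3-AKO library.

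Between the libraries, most matrix genes differed little. In all fibroblasts, 36 of the 38 reached 20 CPM, all but Col8a1 and Tnc. The 36 include Mfap4, and Dcn, which chose these cells. By the same size rule, 3 were higher in the LPCAT3-AKO library, where 2% of 6108 genes were, and 0 were lower, where 0.917% were. The median log2 ratio of CPM + 1 over the 36 was 0.14, beside 0.005 over all genes, and 29 of the 36 ratios lay above 1, beside 51.1% of all genes. The same cells carried more epithelial marker RNA in the LPCAT3-AKO library (635 against 110.0 CPM over 7 markers) and slightly more mural (82.2 against 56.3 CPM) and macrophage marker RNA (311 against 242 CPM). Without the 83 and 183 cells with markers of another type, which was chosen after seeing the data, the median was 0.21 and 4 genes passed, Col5a3 being added. Col5a3 stood at 354 and 522 CPM in all fibroblasts.

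Cilp had 1907 UMIs in Control fibroblasts (36.2 CPM) and 5645 in LPCAT3-AKO fibroblasts (98.6 CPM), a ratio of 2.72 (2.58 to 2.87). Bgn was at 251 and 427 CPM, a ratio of 1.70 (1.67 to 1.74). Mfap4 was at 28.9 and 52.3 CPM, a ratio of 1.81 (1.70 to 1.92). All of them were also state genes, and the libraries differed in state shares. With the states weighted alike in both libraries, Cilp had a log2 ratio of 1.25. Mfap4 sets a state, so no weighted value is given for it. Bgn dropped to 0.39 and no longer passed, while Thbs1, at 77.8 and 63.6 CPM in all fibroblasts, passed as lower with -0.69. Postn went from 0.43 to 0.11 and Lum from 0.26 to 0.08 under this weighting, while Eln went from 0.16 to 0.32. The median over the genes was again 0.14.

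**Figure D3:**
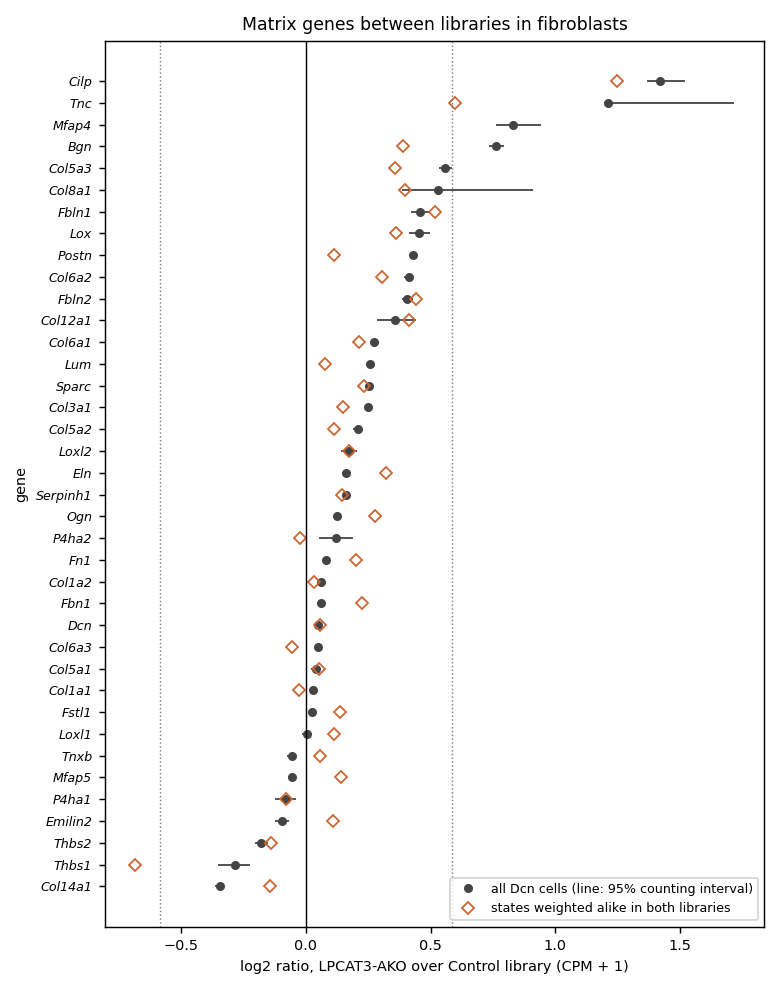
Log2 ratio of LPCAT3-AKO over Control CPM (+ 1) of each matrix gene in all Dcn fibroblasts (filled points, lines for 95% counting intervals of the ratio without the added 1) and with states weighted alike in both libraries (open diamonds, not drawn for Mfap4, which sets a state). Dotted lines mark a ratio of 1.5 either way. Cilp lies at 1.42 and 1.25, and Bgn moves from 0.76 to 0.39.

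Within the states, the median of the genes at 20 CPM was above that of all genes in each of the 4, with cells carrying markers of another type set aside. It was 0.12 in Dpp4/Pi16 cells (all genes -0.01), 0.25 in Col15a1 cells (-0.01), 0.31 in Fmo2/Gdf10 cells (-0.02) and 0.18 in Ccn5/Mfap4 cells (0.01). Dcn, and Mfap4 where it reached 20 CPM, were used to choose cells and are included in these medians and in the counts that follow. In Col15a1 cells 34 of 37 ratios lay above 1, where 47.4% of all genes did. In Dpp4/Pi16 cells 25 of 35 did, beside 46.9%. In Ccn5/Mfap4 cells it was 28 of 37, beside 52.6%, and in Fmo2/Gdf10 cells 31 of 36, beside 48.1%. The Fmo2/Gdf10 values rest on setting those cells aside, a choice made after seeing the data. With them kept, this state held 107 and 188 cells in place of 105 and 171, and its median was -0.4953 in place of 0.31. The medians of the other 3 states stayed above 0.

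In Dpp4/Pi16 cells 1 gene was higher in the LPCAT3-AKO library and 1 lower, where 0.814% and 0.898% of 5899 genes were. Cilp was at 8.79 and 28.0 CPM, a ratio of 3.18 (2.80 to 3.62), with UMIs in 2.87% and 5.62% of the cells, and it reached 20 CPM in the LPCAT3-AKO library alone. Thbs1 was at 28.8 and 18.8 CPM, a ratio of 0.654 (0.591 to 0.723). Their UMIs were concentrated in few cells: the 1% of Dpp4/Pi16 cells richest in the gene held 50.4% and 56.1% of the Thbs1 UMIs, and 73.1% and 59.5% of the Cilp UMIs. Fibrillar collagens summed to 20079 and 19610 CPM in this state, a ratio of 0.977.

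In Col15a1 cells 2 genes were higher and 1 lower, where 1.13% and 1.15% of 6256 genes were. Cilp was at 17.5 and 34.1 CPM, a ratio of 1.95 (1.58 to 2.43), and again reached 20 CPM in the LPCAT3-AKO library alone. Tnc, at 21.7 and 32.6 CPM, had a ratio of 1.51 (1.24 to 1.84), and with every cell thinned to 2000 UMIs its log2 ratio was -0.10. Thbs1 was at 258 and 154 CPM, a ratio of 0.598 (0.559 to 0.640). The 6 fibrillar collagens summed to 38099 and 46157 CPM, a ratio of 1.21, without a chain past the rule. Col15a1 cells held a median of 7 Col15a1 UMIs in Control and 9 in LPCAT3-AKO. The part of this difference in the ratios of the state was not tested. Mural markers summed to 85.8 and 130.1 CPM in these cells. Most of that difference came from Acta2 and Tagln, which are on the mural list and whose values are given below. The part of mural RNA in the result was not tested.

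In Ccn5/Mfap4 cells 3 genes were higher and 0 lower, where 2.22% and 1.88% of 5903 genes were. Eln was at 1033 and 2069 CPM, a ratio of 2.00 (1.92 to 2.09). Cilp was at 476 and 967 CPM, a ratio of 2.03 (1.91 to 2.17), and Col5a3 at 175 and 276 CPM, a ratio of 1.58 (1.41 to 1.76). UMIs of Eln per UMI of Fbn1 were 0.649 and 1.003 in this state, but 0.477 and 0.480 in Dpp4/Pi16 cells. The elastic fibre genes together stood at 6613 and 9241 CPM, a ratio of 1.40, while the fibrillar collagens stood at 28814 and 28930 CPM, a ratio of 1.004. Mfap4, which set the state, is part of the elastic fibre sum, at 411 and 572 CPM.

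In Fmo2/Gdf10 cells 6 genes were higher and 0 lower, where 3.81% and 3.68% of 6383 genes were. The state held few cells, and the counts were small for Cilp (27 and 145 UMIs, 31.5 and 94.8 CPM) and Thbs1 (59 and 158 UMIs, 68.8 and 103 CPM). Also higher were Thbs2 (174 and 546 UMIs, 203 and 357 CPM) and Eln (385 and 1153 UMIs, 449 and 754 CPM). The last were Fbln2 (421 and 1228 UMIs, 491 and 803 CPM) and Ogn (919 and 2717 UMIs, 1072 and 1776 CPM). A single cell held 33.3% of the Control Cilp UMIs. With the cells carrying markers of another type kept in, Eln, Fbln2 and Ogn had log2 ratios of -0.04, -0.08 and -0.08.

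In the fibroblasts that met no state's rule, 4 matrix genes were higher and 1 lower, where 2.24% and 2.3% of 6300 genes were. Cilp was at 35.3 and 132 CPM, Mfap4 at 21.1 and 47.2 CPM, Fbln1 at 187 and 312 CPM and Bgn at 447 and 671 CPM. The rule limits Mfap4 here, since these cells had fewer than 10 UMIs of Ccn5 and Mfap4 together. Thbs1 was at 207 and 94.6 CPM, with 1 cell holding 11.2% of the LPCAT3-AKO UMIs. The direction of Cilp and Bgn was that seen in all fibroblasts, which include these cells. That of Thbs1 was the one seen in Dpp4/Pi16 and Col15a1 cells. The 83 and 183 cells with markers of another type went the other way, with 0 genes higher and 11 of 35 lower, where 7.92% and 16.5% of 7198 genes were, and a median of -0.49. Their make-up differed between the libraries. Fibroblast markers summed to 8424 CPM in Control and 5130 CPM in LPCAT3-AKO, and epithelial markers to 3203 and 8068 CPM. The part of this difference in the matrix levels was not tested.

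**Figure D4:**
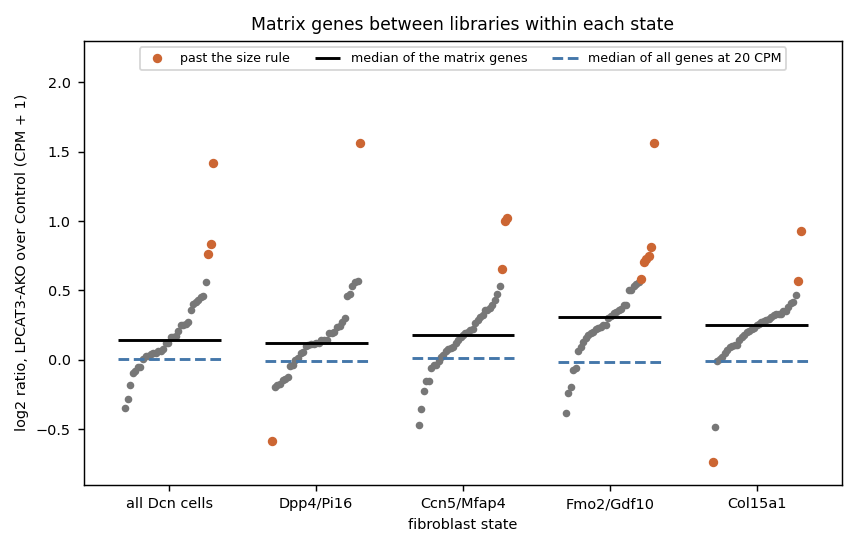
Log2 ratio of LPCAT3-AKO over Control CPM (+ 1), 1 point a matrix gene at 20 CPM or more, in all Dcn fibroblasts and in each state, with genes past the size rule in orange. Solid lines give the median of the matrix genes (0.14, then 0.12, 0.18, 0.31 and 0.25) and dashed lines that of all genes at 20 CPM, which lies near 0. Dcn and Mfap4, which were used to choose cells, are included where they reached 20 CPM.

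Cilp was higher in the LPCAT3-AKO library in all 4 states, and it also followed the amount of Ccn5 and Mfap4 RNA in a cell. Among fibroblasts without a UMI of Ccn5 or Mfap4, Cilp was at 3.10 CPM in Control and 9.49 CPM in LPCAT3-AKO. With 1 to 4 UMIs of these genes it was at 33.0 and 98.2 CPM, with 5 to 9 at 138 and 485 CPM, with 10 to 19 at 288 and 605 CPM, and with 20 or more at 771 and 1252 CPM. The LPCAT3-AKO library was higher in each range and held more cells in the last, 148 against 75. After thinning to 2000 UMIs, 35.6% of Control and 57.3% of LPCAT3-AKO Ccn5/Mfap4 cells had a Cilp UMI (59.4% and 81.4% before). Macrophages, which should lack it, had a Cilp UMI in 0.459% and 1.82% of cells at median depths of 7271 and 8776 UMIs, and their Cilp level was 0.585 and 1.86 CPM.

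Over the same ranges, Eln was at 805 and 798 CPM without a UMI of Ccn5 or Mfap4, at 702 and 1403 CPM with 5 to 9 UMIs, at 809.6 and 1714 CPM with 10 to 19 and at 1384 and 2349 CPM with 20 or more. Thbs2 was at 354 and 279 CPM in the first of these ranges, at 999.6 and 1254 CPM with 10 to 19 UMIs and at 821 and 1254 CPM with 20 or more. Bgn was at 172 and 309 CPM in cells without a UMI of Ccn5 or Mfap4. These ranges pool cells of states whose shares differed between the libraries, and within Dpp4/Pi16 cells Eln was at 938 and 1110.4 CPM. A test of differences between ranges was not possible with 1 library each.

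Outside fibroblasts, the level of the matrix genes depended on the cell class. In macrophages (3271 and 2745 cells) the median gene stood at 2.32% of its fibroblast level in Control and 1.94% in LPCAT3-AKO. Above 10% were 4 genes in each library. Fn1 was at 992 and 1041 CPM in macrophages, 27.2% and 27.0% of fibroblasts, and Emilin2 at 128 and 118 CPM, 31.9% and 31.5%. P4ha1 stood at 60.8% and 54.9%, and Thbs1 at 60.4% and 79.8%.

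In mural cells 24 and 22 of 37 genes stood above 10% of their fibroblast level, and in endothelial cells 18 and 19. Mural cells were few, 17 and 30, chosen by 3 or more mural markers with fewer than 10 Dcn UMIs and no UMI of Ptprc, Pecam1, Cdh5, Epcam or basal keratins. Of 36 genes at 20 CPM in either group, 20 were lower than in fibroblasts in both libraries and 1 was higher, where 8.08% and 10.6% of all genes were. The higher one was Thbs1, at 466 and 195 CPM on 39 and 25 UMIs. Mural cells kept type VI collagen: Col6a1 was at 825 and 757 CPM, 97.4% and 73.9% of the fibroblast level. Sparc (6803 and 6068 CPM), Postn (1184 and 1186 CPM) and Bgn (609.7 and 562 CPM) were also near or above fibroblast levels. Col1a1, at 454 and 445 CPM, was at 10.0% and 9.61% of fibroblasts, and Lum, Ogn, Mfap5 and Loxl1 were each below 4% in both libraries. Between the libraries, Fn1 (27 and 21 UMIs, 323 and 164 CPM) and Thbs1 were lower in LPCAT3-AKO mural cells, 2 of 34 genes where 2.72% of all genes were, and 0 were higher, where 1.6% were, and the counts were too small to carry more.

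Endothelial cells (208 and 257) shared part of this pattern. Sparc was at 5725 and 6419 CPM, 98.9% and 93.0% of fibroblasts, and Serpinh1 at 54.7% and 55.5%. Mural markers summed to 2936 and 3439 CPM in these cells, and their part in the endothelial levels was not tested. Epithelial cells (87 and 180) were high in P4ha2, at 188 and 94.95 CPM, and in Col8a1, at 30.1 and 22.8 CPM, while their median gene stood at 1.12% and 1.01% of fibroblasts.

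**Figure D5:**
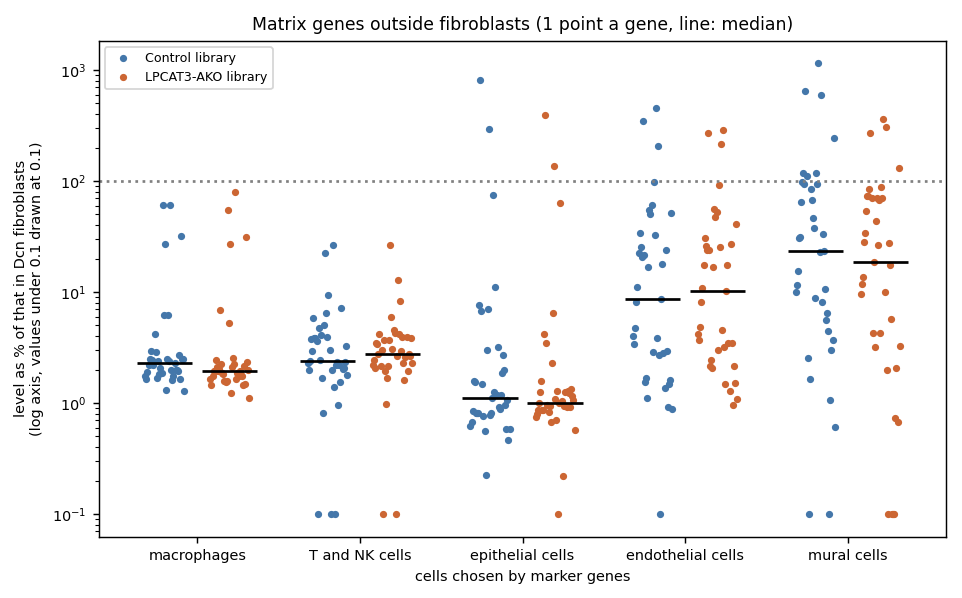
Level of each matrix gene except Dcn in 5 other cell classes, as a percent of its level in Dcn fibroblasts of the same library (log axis), with the median as a line. Macrophage points sit near 2% apart from 4 genes, and mural points reach above 100% in the Control library for Col6a2, Col12a1, Sparc, Bgn and Thbs1, and for Col8a1 and Tnc, which had 2 and 3 UMIs there. Col12a1 also rests on few UMIs. In the LPCAT3-AKO library Col6a2, Col12a1 and Sparc lie below 100%, at 73.1%, 70.2% and 87.95%.

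Genes around the matrix genes differed in few places. Of 24 collagen maturation partners, 19 reached 20 CPM in all fibroblasts, 1 was higher and 0 were lower, with a median log2 ratio of 0.07. For this list and the next 3, the shares over all genes are the 2% and 0.917% given above, so counts of 0 or 1 lie near the background. The higher one was Pcolce, the enhancer of procollagen C-proteinase, at 318 and 488 CPM, and it was also higher in Dpp4/Pi16 cells, at 215 and 326 CPM. Of 31 other interstitial matrix genes, 24 reached the floor, with Fbln7 higher (15.3 and 26.6 CPM) and Ccn1, a matricellular gene, lower (435 and 287 CPM), and a median of 0.02. Of 19 matrix receptors, 13 reached the floor. Sdc1 (syndecan 1) was higher at 32.5 and 62.9 CPM, in fibroblasts that also carried more epithelial marker RNA, and in Fmo2/Gdf10 cells it was lower, at 73.5 and 37.3 CPM. Of 17 TGF-beta signalling genes, 13 reached the floor and 0 passed in either direction, with a median of -0.12.

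In Col15a1 cells, where Thbs1 was lower, the contractile genes Acta2 (4.95 and 23.9 CPM) and Tagln (28.6 and 49.7 CPM) of the TGF-beta list were higher, as 1.13% of all genes were. Both are also mural markers, and the list is not counted in full here. Ccn1 was lower in the same cells, at 444 and 282 CPM, as it was in Fmo2/Gdf10 cells, at 234 and 134 CPM. Among collagen maturation partners of Col15a1 cells, Loxl3 was at 38.9 and 64.3 CPM and P4ha3 at 52.8 and 34.4 CPM, while in Ccn5/Mfap4 cells P4ha3 was at 49.9 and 77.0 CPM. The collagen receptor gene Itga11 was at 15.8 and 27.6 CPM in Col15a1 cells.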

How the data were processed

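RNA was measured in 1 Control and 1 LPCAT3-AKO library of 10x Genomics single-cell sequencing. The authors deposited raw UMI counts per gene and barcode, and the tools in the submitters' processing notes are Cell Ranger 6.1.2 with the mm10 build, and Seurat 4.10. The annotation release is not given in the sources used here. Where several identifiers shared a symbol, the one with the most UMIs was kept (40 entries dropped).

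Cells with 500 or more genes and at most 10% mitochondrial UMIs were kept. Scrublet, in scanpy 1.11.5, scored doublets, and the top 0.8% per 1000 cells were removed (1235 and 1088 cells, against 589 and 560 by Scrublet's own threshold). UMIs were summed over cells and given as CPM, with exact Poisson intervals. For a ratio, the share of 1 library in the joint UMIs gave an exact binomial interval, which was turned into that of the ratio. Log2 ratios use CPM + 1. With 1 library per genotype no test was run, and genes were listed by the size rule: 20 CPM in the higher group, a ratio of 1.5 either way, and an interval without 1. The rule was tested on simulated data. With an undetected gene, the limit is 3 UMIs.

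The members and lists were chosen with earlier results of these data known. State limits were set from counts of the marker genes, and the class of cells with markers of another type was added after seeing the data. Named with full values are the members past the size rule, the member with the highest CPM of each role and those with a 3-fold range between states in both libraries. Other genes come from 4 pathway lists and the marker lists. The bulk RNA sequencing mentioned in the series was not analysed here, and no sequences were used. Some results of the pathway lists are not reported here.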

Additional observations from a re-analysis of the deposited data

Results flagged for a closer look

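Thbs1 passed the size rule in opposite directions in different fibroblast states. Its log2 ratio of LPCAT3-AKO over Control was -0.59 in Dpp4/Pi16 cells and -0.74 in Col15a1 cells, but 0.58 in Fmo2/Gdf10 cells. The last rests on 59 and 158 UMIs, of which 1 cell held 18.6% and 13.3%. The difference between states was not tested, since each state has 1 library per genotype.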

How the results depend on the processing

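No paired analysis was possible because each genotype has 1 library, and for the same reason none could be left out. The median log2 ratio of the matrix genes in all fibroblasts (0.143) was 0.1217 with a Dcn limit of 5 UMIs, 0.2024 without cells holding a UMI of Ptprc, Pecam1, Cdh5 or Epcam, 0.2074 without cells with markers of another type and 0.1241 with a floor of 100 CPM. The log2 ratio of their summed level (0.1348) was 0.1261 without doublet removal, 0.1106 and 0.1557 with Dcn limits of 5 and 20, 0.1942 and 0.1955 under the 2 cleaner cell choices above, 0.1644 after thinning, 0.1672 as a mean of cells, 0.1441 without the matrix genes in the denominator, 0.1301 after division by the median ratio and 0.1258 with states weighted alike. The count of genes past the size rule (3) was 5 without the floor, which added Col8a1 and Tnc, and 1 with a floor of 100 CPM, which left Bgn. The median in Fmo2/Gdf10 cells (0.307) was -0.4953 when cells with markers of another type were kept, which gave 107 and 188 cells. In that state Eln was then at -0.0367, Fbln2 at -0.0831 and Ogn at -0.0798. Tnc in Col15a1 cells was -0.1045 after thinning. The cause of these shifts was not tested. The medians in the other 3 states kept their sign under each alternative run, and 16 or 17 genes had a 3-fold range between states. The alternatives on cells with markers of another type, on state limits relative to depth and on the richest cell, and all those on levels across states, were chosen after seeing the data. Counts were small in mural cells (17 and 30) and in Fmo2/Gdf10 cells (105 and 171), which widens their intervals.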
